A study of Caenorhabditis elegans with 12 samples.

Results

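The astacin, neprilysin-like, ADAMTS and matrix metalloprotease genes of Caenorhabditis elegans were examined in whole-worm mRNA sequencing. A gene was a member when its name in the deposited table began with nas, nep, adt or zmp followed by a number and its mean level over the 6 columns of the table was 1 FPKM or more. FPKM relates the sequenced fragments of a gene to its transcript length and to all mapped fragments, and serves here as its level. Of 46245 genes in the table, 66 carried such a name, and 26 of these were members among the 13337 genes that reached the same mean. The members were 14 of 37 nas genes, 10 of 26 nep genes, 1 of 2 adt genes and the 1 zmp gene so named. All 26 were annotated as protein-coding. The member nearest to the threshold was nas-8, with a mean of 1.21 FPKM, and the gene nearest below it was nas-22, with a mean of 0.943 FPKM.

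These proteases hold a zinc ion in the active site and most are secreted or sit in the cell membrane with the catalytic domain outside. Astacins, encoded in the worm by nas genes, are known for processing procollagen, digesting the old cuticle at the moult and acting in the gut lumen. Neprilysin-like enzymes, encoded by nep genes, cut short peptides such as neuropeptides at the cell surface. ADAMTS proteases (adt) and matrix metalloproteases (zmp) act on extracellular matrix and basement membrane.

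The study asked how the histone deacetylase HDA-1 and the homeodomain protein DVE-1 take part in the response to mitochondrial stress. All worms were of the strain glp-4(bn2), whose temperature-sensitive mutation limits germ-line proliferation, were kept at 20 °C and were collected whole on day 1 of adulthood. They were fed bacteria making double-stranded RNA against hda-1 or dve-1, or bacteria with the empty vector L4440, and in 3 of the groups bacteria against atp-2, a subunit of the mitochondrial ATP synthase, were added 30 h later. The 6 groups were hda-1+atp-2 RNAi, hda-1 RNAi, dve-1+atp-2 RNAi, dve-1 RNAi, L4440+atp-2 RNAi and L4440 RNAi, with 2 libraries each. The table gives 1 value per gene and group for both libraries together, so no spread between libraries could be computed and no comparison could be tested. A call of higher or lower needed a ratio of FPKM + 1 of 2-fold or more (a log2 ratio of 1 or more in either direction) and at least 5 FPKM in the higher column. Calls are sizes in these pooled libraries, and are read beside the share of all 13337 genes called in the same way. The 4 comparisons with L4440 and the atp-2 comparisons share columns, so their results are not independent of each other.

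Several facts of the whole table bear on the members. From the smallest steps between low values, 1 FPKM on a transcript of 1 kb stood for an estimated 16.1 to 18.4 fragments, and 5 FPKM for 80.4 to 91.9 fragments. The intervals given below on ratios of FPKM are 95% exact Clopper-Pearson intervals on such estimated fragments and cover counting error only, not the difference between libraries. The RNAi targets atp-2 and dve-1 were lower where their own clone was fed, at 423 to 598 FPKM against 861 to 1094 FPKM for atp-2, and for dve-1 at 14.3 and 11.1 FPKM in dve-1 RNAi against 19.6 and 25.4 FPKM in L4440, with and without atp-2 RNAi. The signal at hda-1 was 811 and 1207 FPKM in the columns with the hda-1 RNAi label, with and without atp-2 RNAi, against 21.04 and 18.8 FPKM in L4440 with and without it. This signal does not show a knockdown, and its source was not tested. The study also compared hda-1 mRNA by qRT-PCR between wild-type worms on control and on hda-1 RNAi, and reported a difference. It cited this measurement when discussing how efficient hda-1 RNAi was, and its text does not state the direction. Those 2 columns are therefore named by their label only and are called the hda-1-labelled columns. Whole worms mix all tissues, and fewer cells of a type and less RNA per cell cannot be told apart. Summed over 6 sperm genes, the level was 1.91 and 4.17 FPKM in the hda-1-labelled columns with and without atp-2 RNAi, 156 and 224 FPKM in dve-1 RNAi with and without it, and 59.9 and 50.8 FPKM in L4440 with and without it. The sum over 5 germ-line genes was higher with atp-2 RNAi in each background. It was 177 and 116 FPKM in the hda-1-labelled columns with and without atp-2 RNAi, 183 and 141 FPKM in dve-1 RNAi, and 148 and 101 FPKM in L4440. The part of the germ line in the atp-2 comparisons of the members was not tested. That over 4 pharyngeal genes was 61.5 and 54.6 FPKM in the hda-1-labelled columns against 31.2 to 39.2 FPKM in the other 4. The 3 adult cuticle genes summed to between 2414 and 4046 FPKM, of which col-19 alone made 2413 to 4038 FPKM. Both others were higher in the hda-1-labelled columns, at 6.14 and 5.14 FPKM for col-62 and 2.12 and 1.51 FPKM for col-7. In L4440 col-62 had 0.709 and 0.883 FPKM and col-7 had 0.204 and 0.641 FPKM, each with and without atp-2 RNAi.

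The levels of the members ran from means of 1.21 to 246 FPKM, and a few genes carried most of the signal. The 4 genes with the highest means, nep-17, nas-11, nep-22 and adt-2, made up 68.6% to 80.1% of the members' summed FPKM in each column. The summed FPKM was 641 and 634 in the hda-1-labelled columns with and without atp-2 RNAi, 751 and 567 in dve-1 RNAi with and without it, and 567 and 535 in L4440 with and without it, which was between 0.0578% and 0.0770% of all FPKM in the table. The median member lay between 3.17 FPKM in L4440 RNAi and 4.66 FPKM in hda-1+atp-2 RNAi.

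**Figure D1:**
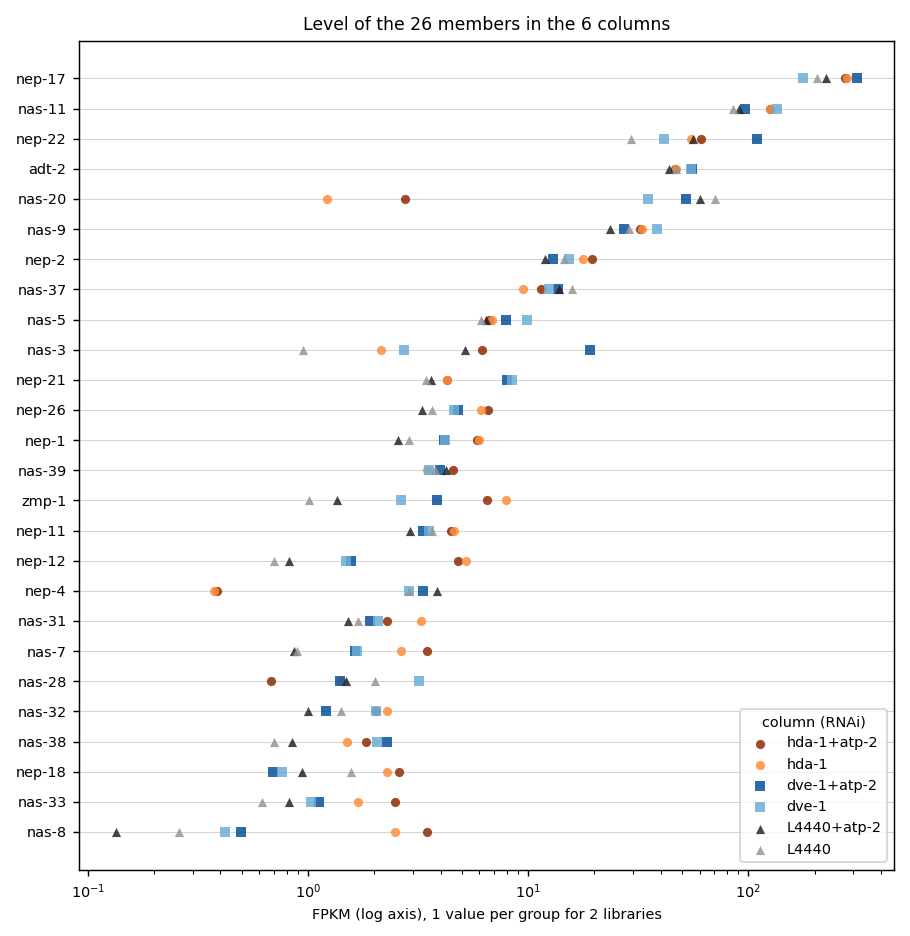
Level of each of the 26 members (rows, by mean) in the 6 columns, in FPKM on a log axis, with 1 point per group for 2 libraries and no error bar because the table holds no value per library. The points of nas-20 split into a low pair from the hda-1-labelled columns (2.75 and 1.22 FPKM) and 4 others between 35.0 and 70.7 FPKM, while those of adt-2 all lie between 43.8 and 55.7 FPKM.

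A member was highest in one of the hda-1-labelled columns in 13 of 26 cases (7 with and 6 without atp-2 RNAi), in a dve-1 RNAi column in 10 cases (5 and 5) and in an L4440 column in 3 cases (1 and 2). Of all kept genes, 26.3% and 16.4% were highest in the hda-1-labelled columns with and without atp-2 RNAi, 18.7% and 19.5% in dve-1 RNAi and 13.5% and 5.62% in L4440, so that the members lay near these shares. It was lowest in an L4440 column in 19 of 26 cases (10 with and 9 without atp-2 RNAi). Among all kept genes, 16.1% were lowest in L4440+atp-2 RNAi and 33.7% in L4440 RNAi. The range of log2(FPKM + 1) over the 6 columns had a median of 0.95 for the members and of 0.79 for all kept genes, and was 1 or more for 12 of the 26 members (46.2%) and for 37.8% of all kept genes. A range under 0.5 was found for 2 members, adt-2 and nas-39, and 6 were called in at least 1 of the 7 comparisons. The share of all kept genes called in at least 1 comparison was not computed, so this count is not read as a trait of the members. Shares for each single comparison are given below.

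With atp-2 RNAi, nas-3 was the member called higher in every background. Its level was 6.14 and 2.14 FPKM in the hda-1-labelled columns with and without atp-2 RNAi, 19.1 and 2.72 FPKM in dve-1 RNAi with and without it, and 5.16 and 0.952 FPKM in L4440 with and without it. The gene encodes an astacin and lies on chromosome V (9478163 to 9479601, plus strand, ce11). All 3 columns with atp-2 RNAi exceeded all 3 without it, and the level in dve-1+atp-2 RNAi stood apart from the other 5. The log2 ratio with over without atp-2 RNAi was 1.19, 2.43 and 1.66 in the hda-1-labelled columns, in dve-1 RNAi and in L4440. As a plain ratio of FPKM this was 2.87 (1.98 to 4.15), 7.02 (5.23 to 9.49) and 5.42 (3.27 to 9.78), the last of which rested on an estimated 103 fragments against 17. Calls at the 2-fold limit held in all 3 backgrounds, and nas-3 was also called higher in dve-1+atp-2 RNAi than in L4440+atp-2 RNAi (log2 1.71, ratio 3.70, 2.96 to 4.62). With a pseudocount of 5 FPKM the calls of nas-3 in L4440 and in the hda-1-labelled columns were lost.

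No other member was called in L4440 or in the hda-1-labelled columns when atp-2 RNAi was added. In L4440 this made 1 of 26 members higher and 0 lower, beside 1.89% of all kept genes called higher and 0.652% called lower. In the hda-1-labelled columns it made 1 higher and 0 lower, beside 0.742% and 0.645% of all kept genes. In dve-1 RNAi 2 members were higher and 0 lower, beside 0.997% and 1.56% of all kept genes, the second being nep-22.

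The neprilysin-like gene nep-22 (chromosome X, 9034554 to 9038547, plus strand) was the third most abundant member. It had 60.6 and 54.6 FPKM in the hda-1-labelled columns with and without atp-2 RNAi, 109.6 and 41.3 FPKM in dve-1 RNAi with and without it, and 55.8 and 29.3 FPKM in L4440 with and without it. The column with atp-2 RNAi was the higher one in each background, but by unequal amounts. The log2 ratio was 0.15, 1.39 and 0.91, and the plain ratio of FPKM 1.111 (1.05 to 1.17), 2.66 (2.52 to 2.80) and 1.91 (1.78 to 2.04), in that order of backgrounds, so that L4440 stayed just under 2-fold. The difference between these ratios could not be tested with 1 value per group.

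The most abundant member, nep-17 (chromosome II, 13507819 to 13516478), varied less. Its level was 274 and 281 FPKM in the hda-1-labelled columns with and without atp-2 RNAi, 313 and 177 FPKM in dve-1 RNAi with and without it, and 226 and 206 FPKM in L4440 with and without it. The lowest and the highest of the 6 columns were thus those of dve-1 RNAi without and with atp-2 RNAi, at a ratio of 1.77 (1.73 to 1.80). For the remaining members the greatest distances with atp-2 RNAi were a log2 ratio of 0.76 for nas-20 in the hda-1-labelled columns, where both values were under 3 FPKM, and of -0.81 for nas-28 in dve-1 RNAi. The plain ratio of nas-28 was 0.479 (0.254 to 0.824) in the hda-1-labelled columns and 0.436 (0.292 to 0.635) in dve-1 RNAi. The level of nas-28 was only 0.678 and 1.42 FPKM in the hda-1-labelled columns with and without atp-2 RNAi and 1.39 and 3.19 FPKM in dve-1 RNAi with and without it, which is under the minimum for a call.

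Most members lay near the median of all genes when atp-2 RNAi was added. Their median log2 ratio was 0.00 in the hda-1-labelled columns, 0.03 in dve-1 RNAi and -0.06 in L4440, beside 0.06, 0.02 and 0.11 for all kept genes. Within 0.5 of 0 on the log2 scale were 23, 21 and 24 of the 26 members, and this share was not computed for all kept genes. Above the median of all kept genes were 12, 13 and 8 members, in that order of backgrounds. A ratio above 0 was found for 13, 14 and 12 members, beside 60.3%, 53.7% and 66.0% of all kept genes. In L4440 the members thus stood more on the lower side.

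**Figure D2:**
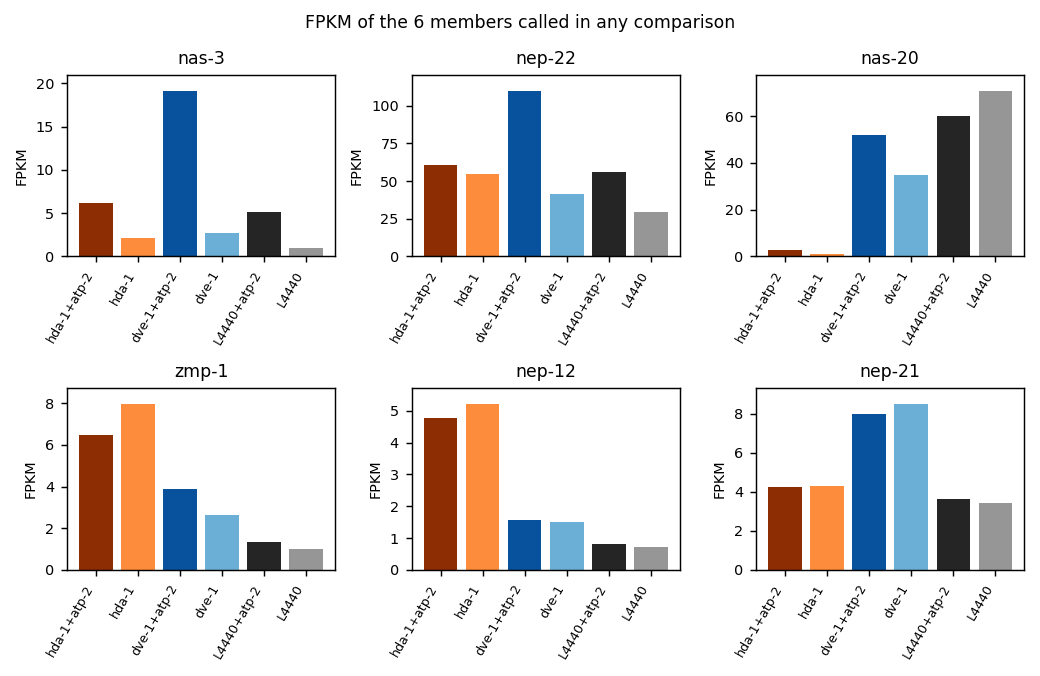
FPKM of the 6 members called in at least 1 comparison, as bars from 0 with 1 value per group for 2 libraries and no error bar. In nas-3 and nep-22 the bar of dve-1+atp-2 RNAi is the tallest (19.1 and 109.6 FPKM), in nas-20 both bars of the hda-1-labelled columns are near the base (2.75 and 1.22 FPKM), in zmp-1 and nep-12 those same 2 columns are the tallest, and in nep-21 the dve-1 RNAi columns are (7.98 and 8.48 FPKM).

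In the hda-1-labelled columns, the greatest distance from L4440 of any member was downward and belonged to nas-20, the fifth most abundant member. It had 2.75 and 1.22 FPKM in the hda-1-labelled columns with and without atp-2 RNAi, 51.9 and 35.0 FPKM in dve-1 RNAi with and without it, and 60.1 and 70.7 FPKM in L4440 with and without it. The hda-1-labelled columns did not overlap with the other 4, whose lowest value was 35.0 FPKM. Against L4440 the log2 ratio was -4.03 with atp-2 RNAi and -5.02 without it, or 0.0457 (0.0343 to 0.0592) and 0.0172 (0.0113 to 0.0259) of the L4440 level. An estimated 58 and 25 fragments stood behind the values of the hda-1-labelled columns, against 1275 and 1358 in L4440.

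Directly beside nas-20 on chromosome V (11470925 to 11472309, minus strand) lie 2 further astacin genes, nas-21 (11472564 to 11473899, plus strand) and nas-22 (11474699 to 11478007, plus strand). The gap between nas-20 and nas-21 is 254 bp and that between nas-21 and nas-22 is 799 bp. Neither reached a mean of 1 FPKM. The level of nas-22 was 0.135 and 0.0437 FPKM in the hda-1-labelled columns with and without atp-2 RNAi, 1.32 and 1.32 FPKM in dve-1 RNAi with and without it, and 1.29 and 1.55 FPKM in L4440 with and without it. Only 3 and 1 estimated fragments stood behind the values of nas-22 in the hda-1-labelled columns, against 29 and 32 in L4440. For nas-21 the highest of the 6 values was 0.257 FPKM, in L4440 RNAi, and the hda-1-labelled columns held 0 and 0.0461 FPKM. All 3 neighbours were thus lowest in the hda-1-labelled columns, with nas-21 too low for a ratio to be read. A second run of 4 astacin genes on the same chromosome, nas-16, nas-18, nas-17 and nas-19, was at or near 0 in every column, with 0.329 FPKM for nas-17 in L4440+atp-2 RNAi as its highest value.

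Higher in the hda-1-labelled columns were zmp-1 and nep-12. The matrix metalloprotease gene zmp-1, known for its expression in the anchor cell and its part in that cell's invasion through basement membrane, lies on chromosome III (5926895 to 5932953, minus strand). It had 6.49 and 7.95 FPKM in the hda-1-labelled columns with and without atp-2 RNAi, 3.87 and 2.63 FPKM in dve-1 RNAi with and without it, and 1.35 and 1.01 FPKM in L4440 with and without it. The 3 backgrounds did not overlap, with the hda-1-labelled columns highest and L4440 lowest. The log2 ratio against L4440 was 1.67 with atp-2 RNAi and 2.15 without it, or 4.81-fold (3.42 to 6.84) and 7.86-fold (5.35 to 12.2) in plain FPKM. An overlapping gene on the opposite strand, bcl-7, had 3.84 and 4.62 FPKM in the hda-1-labelled columns and 3.70 and 3.19 FPKM in L4440, with and without atp-2 RNAi, and whether the counting used strand is not stated.

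The neprilysin-like gene nep-12 (chromosome II, 4775284 to 4784536, minus strand) had 4.78 and 5.21 FPKM in the hda-1-labelled columns with and without atp-2 RNAi, 1.57 and 1.49 FPKM in dve-1 RNAi with and without it, and 0.823 and 0.702 FPKM in L4440 with and without it. As for zmp-1, the backgrounds fell into separate pairs in the same order. Without atp-2 RNAi the log2 ratio of nep-12 was 1.87 (7.41-fold in plain FPKM, 5.18 to 10.9), which was called. With atp-2 RNAi it was 1.67 (5.81-fold, 4.23 to 8.23), which was not called because the higher column, at 4.78 FPKM, stayed under 5 FPKM.

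This made 1 member higher and 1 lower with atp-2 RNAi, beside 8.43% and 4.34% of all kept genes, and 2 higher and 1 lower without it, beside 8.77% and 3.25% of all kept genes. The members' counts were thus near or under the background. Below the size of a call, more members stood on the higher side. Their median log2 ratio against L4440 was 0.44 with atp-2 RNAi and 0.45 without it, beside 0.13 and 0.16 for all kept genes. Under median-of-ratios scaling between columns the members' medians were 0.27 and 0.26, beside -0.03 and -0.02 for all kept genes. Both hda-1-labelled columns exceeded both L4440 columns for 18 of 26 members (69.2%), beside 42% of all kept genes, and both were below for 4 members (15.4%), beside 23.4% of all kept genes. Among the 18 were 3 members, nas-8, nas-33 and nep-18, that reached the mean of 1 FPKM only through the hda-1-labelled columns, with means of 0.327, 0.898 and 0.993 FPKM over the other 4. These 3 also enter the members' medians just given, and their excess is tied to their membership. The 4 below were nas-20, nas-37, nas-28 and nep-4.

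Of these, nep-4 (chromosome X, 6860947 to 6863424) was low in both hda-1-labelled columns alike. Its level was 0.385 and 0.372 FPKM in the hda-1-labelled columns with and without atp-2 RNAi, 3.33 and 2.88 FPKM in dve-1 RNAi with and without it, and 3.84 and 2.88 FPKM in L4440 with and without it. With no column at 5 FPKM it could not be called, although its ratio to L4440 was 0.1003 (0.0465 to 0.192) with atp-2 RNAi and 0.129 (0.0551 to 0.253) without it. The ecdysis astacin nas-37, whose product digests the old cuticle at each moult, had 11.5 and 9.45 FPKM in the hda-1-labelled columns with and without atp-2 RNAi, 13.6 and 12.5 FPKM in dve-1 RNAi with and without it, and 13.8 and 15.8 FPKM in L4440 with and without it. Its ratio without atp-2 RNAi was 0.599 (0.528 to 0.679).

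Opposite to nep-4, nas-8 had 3.47 and 2.47 FPKM in the hda-1-labelled columns with and without atp-2 RNAi, 0.496 and 0.418 FPKM in dve-1 RNAi with and without it, and 0.135 and 0.261 FPKM in L4440 with and without it. The ratio of FPKM against L4440 was 25.8 with atp-2 RNAi, with a wide interval of 9.17 to 90.7 because only an estimated 4 fragments stood behind the L4440 value, and since nas-8 is a member only through the hda-1-labelled columns, this excess is tied to its membership. Another low astacin, nas-7, needed with nas-6 for the grinder of the pharynx, had 3.48 and 2.66 FPKM in the hda-1-labelled columns with and without atp-2 RNAi, against 0.865 and 0.888 FPKM in L4440 with and without it. The same 2 columns held 0.634 and 1.48 FPKM of nas-6, against 0.0499 and 0 FPKM in L4440. The summed level of the 4 pharyngeal marker genes, given above, was also highest there. Of these 4, 0 were called, beside 8.43% of all kept genes called higher with and 8.77% without atp-2 RNAi. Of these genes, pha-4 had 9.74 and 7.70 FPKM there, against 8.16 FPKM in L4440+atp-2 RNAi. For 4 pharyngeal gland genes the median log2 ratio to L4440 was 0.001 with and 0.24 without atp-2 RNAi. The part of the pharynx in the values of nas-6 and nas-7 was not tested.

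**Figure D3:**
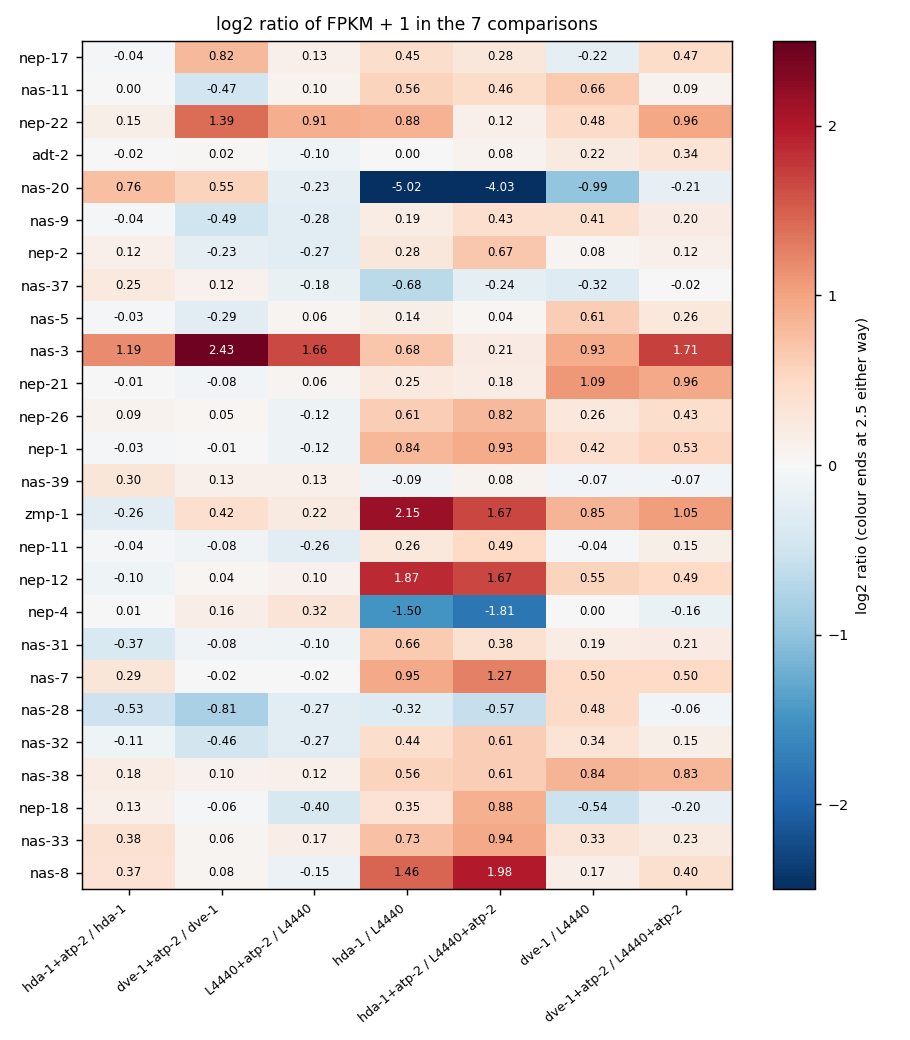
Log2 ratio of FPKM + 1 for the 26 members (rows, by mean level) in the 7 comparisons (columns), with the value in each cell and colour from blue (lower) to red (higher). The row of nas-3 is red in all 3 atp-2 comparisons (1.19, 2.43 and 1.66), the 2 comparisons of the hda-1-labelled columns hold the deepest blue at nas-20 (-5.02 and -4.03) and red at zmp-1, nep-12 and nas-8, and most other cells are pale.

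In dve-1 RNAi the member called higher was nep-21, a neprilysin-like gene on chromosome V (14215339 to 14226473, minus strand). It had 7.98 and 8.48 FPKM in dve-1 RNAi with and without atp-2 RNAi and 3.63 and 3.44 FPKM in L4440 with and without it, and 4.26 and 4.29 FPKM in the hda-1-labelled columns with and without it. The dve-1 RNAi columns did not overlap with the other 4. The log2 ratio to L4440 was 1.09 without atp-2 RNAi (2.46-fold in plain FPKM, 2.07 to 2.93) and 0.96 with it (2.201-fold, 1.87 to 2.61), the second just under the limit of a call. When the columns were rescaled by median-of-ratios or by upper quartile, the call without atp-2 RNAi was lost. With atp-2 RNAi nas-3 was the 1 member called.

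These calls amount to 1 member higher and 0 lower with atp-2 RNAi, beside 4.81% and 2.39% of all kept genes, and likewise 1 higher and 0 lower without it, beside 7.08% and 2.23% of all kept genes. The members' median log2 ratio was 0.24 with atp-2 RNAi and 0.33 without it, beside 0.12 and 0.22 for all kept genes. Both dve-1 RNAi columns exceeded both L4440 columns for 13 members (50%), beside 44% of all kept genes, and both were below for 3 (11.5%), beside 12.8% of all kept genes. Among the 13 was nas-38, an astacin known from larval moulting and sleep, with 2.27 and 2.05 FPKM in dve-1 RNAi with and without atp-2 RNAi, against 0.847 and 0.702 FPKM in L4440 with and without it. The 3 below were nas-20, nas-37 and nep-18. For nas-20 the ratio to L4440 without atp-2 RNAi was 0.496 (0.452 to 0.543) in plain FPKM and its log2 ratio was -0.99, just under a call, while with atp-2 RNAi the ratio was 0.863 (0.796 to 0.936).

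**Figure D4:**
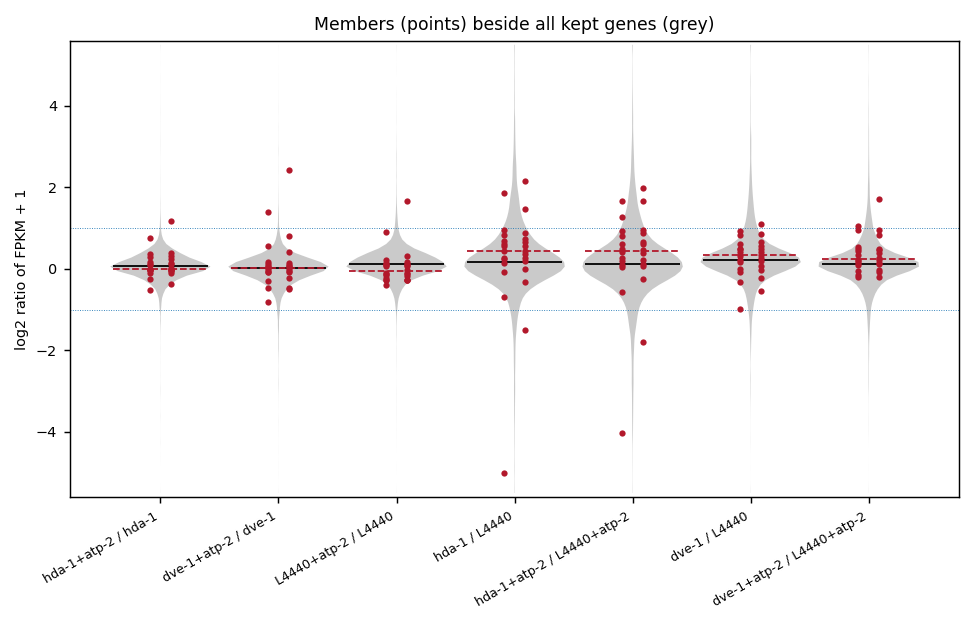
Log2 ratio of FPKM + 1 of the 26 members (red points) beside the distribution over all 13337 kept genes (grey shapes, drawn up to 5.5 in either direction) in the 7 comparisons, with the median of the members as a dashed line and that of all kept genes as a solid line; dotted lines mark 2-fold. Most members lie between the dotted lines, with single points beyond them such as nas-20 at -5.02 and -4.03 and nas-3 at 2.43, and their medians (0.45 and 0.44) are above those of all genes (0.16 and 0.13) in the comparisons of the hda-1-labelled columns.

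The other abundant members lay closer together over the columns. The ADAMTS gene adt-2, known for the organisation of cuticle collagen and for body size, had 46.4 and 47.0 FPKM in the hda-1-labelled columns with and without atp-2 RNAi, 55.7 and 54.9 FPKM in dve-1 RNAi with and without it, and 43.8 and 46.9 FPKM in L4440 with and without it. The astacin nas-11 had 125.1 and 125.5 FPKM in the hda-1-labelled columns with and without atp-2 RNAi, 96.8 and 134.9 FPKM in dve-1 RNAi with and without it, and 91.0 and 85.1 FPKM in L4440 with and without it. For the astacin nas-9, ranked just after nas-20 by level, the values were 32.0 and 33.0 FPKM in the hda-1-labelled columns with and without atp-2 RNAi, 27.2 and 38.6 FPKM in dve-1 RNAi with and without it, and 23.6 and 28.8 FPKM in L4440 with and without it. In dve-1 RNAi both nas-11 and nas-9 were lower with atp-2 RNAi than without it, at ratios of 0.717 (0.685 to 0.752) and 0.705 (0.646 to 0.769). The astacin nas-5 had 6.67 and 6.85 FPKM in the hda-1-labelled columns with and without atp-2 RNAi, 7.92 and 9.87 FPKM in dve-1 RNAi with and without it, and 6.43 and 6.13 FPKM in L4440 with and without it.

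Among the neprilysin-like genes, 2 have known parts in the nervous system. The product of nep-2 opposes the neuropeptide SNET-1 in olfactory plasticity. Its gene had 19.4 and 17.8 FPKM in the hda-1-labelled columns with and without atp-2 RNAi, 13.0 and 15.4 FPKM in dve-1 RNAi with and without it, and 11.9 and 14.5 FPKM in L4440 with and without it. On the same strand nep-2 overlaps T05A8.3, which had a mean of 37.8 FPKM, and how shared fragments were assigned is not stated. The neprilysin homologue nep-1, linked with locomotion and pharyngeal pumping, had 5.82 and 5.96 FPKM in the hda-1-labelled columns with and without atp-2 RNAi, against 2.57 and 2.89 FPKM in L4440 with and without it. For nep-1 this was 2.26-fold (1.81 to 2.84) and 2.06-fold (1.66 to 2.59) in plain FPKM, but under a log2 ratio of 1 on FPKM + 1. All in all 9 of the 10 nep members had a higher value in the hda-1-labelled columns than in L4440, both with and without atp-2 RNAi, with nep-4 the lower one, and so had 11 of 14 nas members with and 10 of 14 without atp-2 RNAi. Of all kept genes 59.1% with and 63.2% without atp-2 RNAi had a higher value there. Among the members so counted, nep-18, nas-33 and nas-8 reached the mean of 1 FPKM only through the hda-1-labelled columns. Their excess there is tied to their membership. The members nas-39, a gene like BMP1 and tolloid, nep-11, nep-18, nep-26, nas-31, nas-32 and nas-33 had means between 1.295 and 4.83 FPKM and were called in no comparison.

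The 40 matching genes under the mean add low values to the picture, of which 3 were at 0 in all 6 columns. Among the 37 others, both hda-1-labelled columns were above both L4440 columns for 18 (48.6%), beside 42.1% of all genes under the mean with a value above 0, and below for 12 (32.4%), beside 11.5%. Above were 12 of 20 nas genes and 5 of 16 nep genes, and below were 4 of 20 nas and 8 of 16 nep genes, and many of these values rest on an estimated 0 to 3 fragments. The difference between the families was not tested. The 12 nas genes, among them nas-10, nas-14 and nas-15, summed to 12.1 and 10.7 FPKM in the hda-1-labelled columns with and without atp-2 RNAi, 3.13 and 2.82 FPKM in dve-1 RNAi with and without it, and 1.60 and 1.37 FPKM in L4440 with and without it, where the order of the hda-1-labelled and L4440 columns follows from how the 12 were picked.

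The 8 nep genes below were nep-3, nep-6, nep-7, nep-9, nep-13, nep-19, nep-20 and nep-23. Their summed level was 0.0859 and 0.0755 FPKM in the hda-1-labelled columns with and without atp-2 RNAi, 5.31 and 5.28 FPKM in dve-1 RNAi with and without it, and 2.40 and 1.4999 FPKM in L4440 with and without it. The highest single value was 1.67 FPKM, of nep-23 in dve-1+atp-2 RNAi, where nep-23 had an estimated 69 fragments, against 1 in hda-1+atp-2 RNAi and 32 in L4440+atp-2 RNAi. These 8 genes were picked by their values in the L4440 and hda-1-labelled columns, so their order in those columns is a description. The sperm genes, whose sums are given above, followed the same order of the 3 backgrounds. In each comparison of the hda-1-labelled columns 4 of 6 were called lower than L4440, beside 4.34% of all kept genes with and 3.25% without atp-2 RNAi. In each comparison of dve-1 RNAi with L4440, 5 of 6 were called higher, beside 4.81% and 7.08% of all kept genes. The part of the sperm genes in these nep levels was not tested. Against L4440, both dve-1 RNAi columns were higher for 17 of the 37 genes under the mean (45.9%), beside 27.5% of all such genes, and lower for 4 (10.8%), beside 6.34%.

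Many of these nep genes lie side by side. On chromosome II, nep-19, nep-20, nep-9, nep-10, nep-8, nep-7, nep-6 and nep-11 follow each other between positions 3388280 and 3425533. The member nep-11 at the end of this run had 4.47 and 4.62 FPKM in the hda-1-labelled columns with and without atp-2 RNAi, 3.32 and 3.56 FPKM in dve-1 RNAi with and without it, and 2.90 and 3.68 FPKM in L4440 with and without it. Its neighbour nep-6, which overlaps it on the opposite strand, had 0 FPKM in both hda-1-labelled columns, 1.04 and 0.942 FPKM in dve-1 RNAi with and without atp-2 RNAi, and 0.508 and 0.310 FPKM in L4440 with and without it. Neighbours thus did not share 1 order of columns. In nep-8, in the middle of the run, the hda-1-labelled columns held 1.19 and 1.60 FPKM and L4440 held 0.264 FPKM in both columns. In all, 10 of the 26 members overlapped another protein-coding gene.

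**Figure D5:**
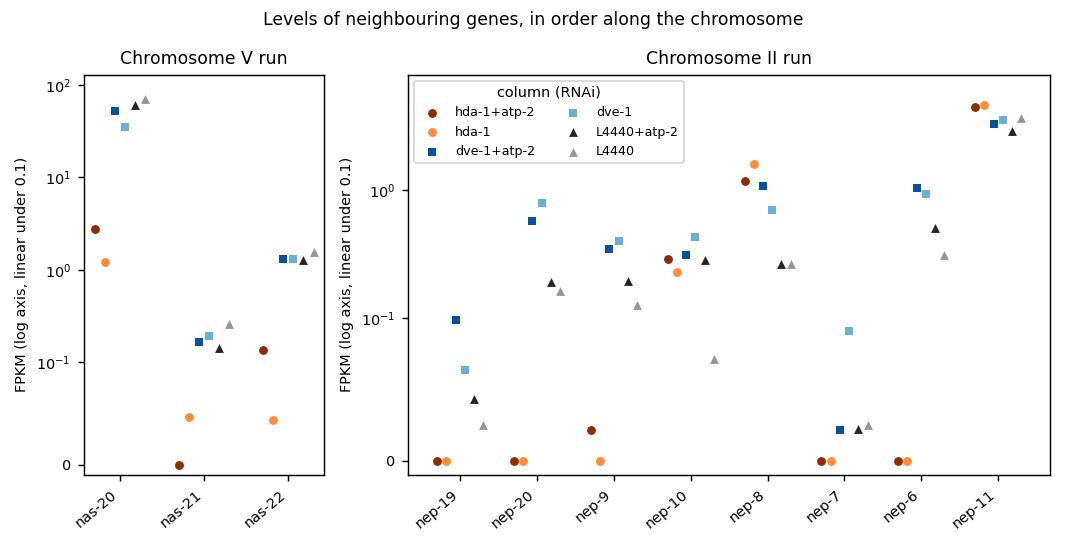
FPKM (log axis, linear under 0.1 FPKM) of the 3 neighbouring astacin genes on chromosome V (left) and the 8 neighbouring neprilysin-like genes on chromosome II (right), with 1 point per group for 2 libraries. In nas-20 and nas-22 the hda-1-labelled columns lie under the other 4, in nep-20 and nep-6 they are at 0 while the dve-1 RNAi columns are highest, and in nep-11 they are highest (4.47 and 4.62 FPKM).

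Metalloproteases and related genes with other names were set beside the members. In the current annotation 7 further rows have a symbol of these families but appear in the table under a sequence name, so that the rule did not take them. One of them, W09D12.1 (now zmp-4), had 100.8 and 94.5 FPKM in the hda-1-labelled columns with and without atp-2 RNAi, 46.9 and 49.8 FPKM in dve-1 RNAi with and without it, and 45.7 and 44.9 FPKM in L4440 with and without it. Its log2 ratio to L4440 was 1.13 with and 1.06 without atp-2 RNAi, and both were called. C31B8.8 (now zmp-3) lay between 14.1 and 22.9 FPKM, H19M22.3 (now zmp-2) had 4.18 and 4.16 FPKM in the hda-1-labelled columns against 0.725 and 0.898 FPKM in L4440, with and without atp-2 RNAi, and the other 4 had means of 3.39 FPKM or less. Together with zmp-1, these 3 zmp genes were each highest in the 2 hda-1-labelled columns, and they were named after their values were seen. The very low zmp genes were highest in hda-1+atp-2 RNAi, but hda-1 RNAi did not share this order. T21D11.1 (now zmp-6) had 0.528 FPKM in hda-1+atp-2 RNAi, 0.108 FPKM in hda-1 RNAi and 0.229 FPKM in dve-1 RNAi. H36L18.1 (now zmp-5) had 0.0766 FPKM in hda-1+atp-2 RNAi, 0 FPKM in hda-1 RNAi and 0.0436 FPKM in L4440 RNAi.

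Of 10 metalloproteases listed outside the name rule, 8 passed the filter. Of these, 1 was called higher in each comparison of the hda-1-labelled columns, beside 8.43% of all kept genes with and 8.77% without atp-2 RNAi. This was adm-2, of the ADAM family, with 14.5 and 19.9 FPKM in the hda-1-labelled columns with and without atp-2 RNAi, against 5.81 and 6.80 FPKM in L4440 with and without it (log2 1.19 and 1.42). The procollagen C-proteinase dpy-31 had 38.0 and 41.3 FPKM in the hda-1-labelled columns, 52.0045 and 58.9 FPKM in dve-1 RNAi and 45.5 and 39.8 FPKM in L4440, each with and without atp-2 RNAi, and was not called. The inhibitor cri-2, a homologue of the tissue inhibitors of metalloproteases, had 209.7 and 199.7 FPKM in the hda-1-labelled columns with and without atp-2 RNAi, 97.2 and 105.4 FPKM in dve-1 RNAi with and without it, and 78.1 and 78.6 FPKM in L4440 with and without it. Its log2 ratio to L4440 was 1.41 and 1.33 in the hda-1-labelled columns, both called.

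The known substrates and settings of these proteases were counted in 3 further lists. Among 18 basement membrane genes, 1 was called higher in each comparison of the hda-1-labelled columns, beside 8.43% of all kept genes with and 8.77% without atp-2 RNAi, namely fbl-1, which encodes fibulin and acts with gon-1 and mig-17 in gonad migration (15.3 and 14.5 FPKM against 6.39 and 5.28 FPKM in L4440, with and without atp-2 RNAi). Of 27 genes of moulting and cuticle assembly, 3 were called higher with and 4 without atp-2 RNAi in the hda-1-labelled columns, beside those same shares. In dve-1 RNAi 4 and 3 were, beside 4.81% and 7.08% of all kept genes. The collagen gene sqt-3, whose product dpy-31 processes, was called in all 4, with 29.4 and 35.2 FPKM in the hda-1-labelled columns, 22.4 and 30.2 FPKM in dve-1 RNAi, and 3.70 and 5.69 FPKM in L4440, each with and without atp-2 RNAi. Of 8 genes for neuropeptides and their processing, 0 were called higher in dve-1 RNAi, beside 4.81% of all kept genes with and 7.08% without atp-2 RNAi. In the hda-1-labelled columns 2 were called higher with and 3 without atp-2 RNAi, beside 8.43% and 8.77% of all kept genes. They included snet-1, which encodes the peptide that nep-2 opposes, with 68.3 and 82.4 FPKM in the hda-1-labelled columns, against 18.3 and 23.5 FPKM in L4440, with and without atp-2 RNAi, a larger distance than that of nep-2 itself. Among 5 neuron markers 1 was called higher in each comparison with L4440 of the hda-1-labelled columns and of dve-1 RNAi, where 4.81% to 8.77% of all kept genes were. Their median log2 ratio in the hda-1-labelled columns was 0.70 with and 0.74 without atp-2 RNAi, while their summed level was 345 and 363 FPKM there, 363 and 422 FPKM in dve-1 RNAi and 325 and 329 FPKM in L4440, each with and without atp-2 RNAi. The part of neurons in the levels of the neuropeptide genes, nep-1 and nep-2 was not tested. The median log2 ratio to L4440 in the hda-1-labelled columns, with and without atp-2 RNAi, was 0.06 and 0.11 for the metalloproteases outside the name rule, 0.42 and 0.37 for the basement membrane genes, 0.68 and 0.56 for the moulting genes and 0.90 and 0.74 for the neuropeptide genes, beside 0.13 and 0.16 for all kept genes. In dve-1 RNAi the moulting genes had medians of 0.63 and 0.48, beside 0.12 and 0.22 for all kept genes. In these 5 lists no gene was called lower in any comparison and none was called when atp-2 RNAi was added. Of all kept genes, 0.645% to 4.34% were called lower in the single comparisons. When atp-2 RNAi was added, 0.645% to 1.89% were called in either direction.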

How the data were processed

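Total RNA of whole worms (12 libraries, 6 groups of 2) was sequenced. Reads had been aligned by the authors to ce11 (TopHat2 2.1.1), those mapping to 1 place were kept, and Cufflinks gave the FPKM that they deposited, with 1 value per gene and group that pools both libraries. Strandedness is not stated. The labels place atp-2 RNAi 30 h after the start of feeding, while the methods of the study also give another timing for mRNA sequencing, and no source says that libraries of 1 group were separate cultures.

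Gene places, biotypes and overlaps came from the Ensembl annotation, release 115, of WBcel235 (the same assembly as ce11), in which 45990 of 46245 identifiers were found. Genes with a mean of 1 FPKM or more were kept. Log2 ratios used a pseudocount of 1, which understates ratios of low genes. A call needed 2-fold and 5 FPKM in the higher column. Without values per library no test was run. Members and lists were chosen with earlier results of these data known. Values in all columns were given for members called in any comparison and for the 10 with the highest mean, and others were named after their values were seen. In the 5 lists, timp-1, tag-225, toh-2 and phy-1 matched no row, and dpy-31 stands in the list of metalloproteases outside the name rule. Marker lists for 11 tissues or cell types were summed. Alternatives were pseudocounts of 0.1 and 5 FPKM, no filter, a minimum of 1 FPKM, and median-of-ratios and upper-quartile scaling. The call rule was run on simulated fragments with counting error only, where the genes given a change had 10 FPKM or more in L4440 RNAi. The simulation therefore does not cover differences between libraries. Nor does it cover changes of genes with lower levels in L4440 RNAi, such as nas-3 and zmp-1. Analysis used Python 3.11.15, numpy 2.4.6, pandas 2.3.3 and scipy 1.17.1. No sequences are shown.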

Additional observations from a re-analysis of the deposited data

How the results depend on the processing

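Of the 11 called ratios, none changed direction under the 6 alternatives. Among these, no filter and a minimum of 1 FPKM leave every ratio as it is and could not change one. The counts of members called that moved are given with the share of all kept genes called in the same way. With a pseudocount of 5 FPKM, the count of members higher was 0 with atp-2 RNAi in L4440 (1.21%), 0 with atp-2 RNAi in the hda-1-labelled columns (0.495%), 0 in hda-1+atp-2 RNAi against L4440+atp-2 RNAi (5.08%), 0 in dve-1 RNAi against L4440 (4.55%), and 1 (zmp-1) in hda-1 RNAi against L4440 (5.56%). With a pseudocount of 0.1 FPKM, 2 were higher in hda-1+atp-2 RNAi (nep-1 and zmp-1, 9.32%), 3 in hda-1 RNAi (nep-1 added, 9.75%), 2 in dve-1+atp-2 RNAi (nas-3 and nep-21, 5.48%), and 1 was lower in dve-1 RNAi (nas-20, 2.53%). With a minimum of 1 FPKM, 4 were higher in hda-1+atp-2 RNAi (nas-7, nas-8, nep-12 and zmp-1, 12.9%), 3 in hda-1 RNAi (nas-8 added, 13.4%), 2 in dve-1+atp-2 RNAi (nas-3 and zmp-1, 6.88%), and 2 lower (nas-20 and nep-4) in the hda-1-labelled columns with (6.76%) and without atp-2 RNAi (5.2%). In dve-1 RNAi against L4440, 0 members were higher and 1 (nas-20) was lower under either scaling, beside 5.68% and 3.67% of all kept genes under median-of-ratios and 5.77% and 3.35% under upper-quartile scaling. Without a filter all 14 counts stayed as they were, which was fixed in advance. The highest value of any gene so added was 2.68 FPKM (nas-10 in hda-1+atp-2 RNAi), and a call needs 5 FPKM.

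Median-of-ratios and upper-quartile scaling were also applied to the counts of members on 1 side of both L4440 columns, an alternative chosen after seeing the data. Above in both hda-1-labelled columns were 14 and 16 members (31.3% and 37.9% of all kept genes), and below 5 and 4 (36% and 29.2%). Both counts above include nas-8, nas-33 and nep-18, which are members only through the hda-1-labelled columns. Above in both dve-1 RNAi columns were 10 and 11 members (26.2% and 29.8%), and below 5 and 5 (25.5% and 21.6%). No paired analysis was possible because the table holds 1 pooled value per group, and for the same reason no library could be left out. Values of members under 5 FPKM rest on unequal numbers of fragments. Examples are an estimated 4 for nas-8 in L4440+atp-2 RNAi and 257 for nep-12 in hda-1+atp-2 RNAi.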
